A study of Mus musculus with 12 samples.

Results

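Peripherin and the neurofilament subunits are the neuronal proteins of the intermediate filament family. The 5 genes described here are Prph (peripherin), Nefl, Nefm and Nefh (the light, medium and heavy neurofilament subunits) and Ina (alpha-internexin). They are 5 of the 22236 genes in the table of expected counts, and they were found by their symbols. All 5 had enough reads to be tested. Prph was chosen by its fall with knockdown in C57BL/6J, so every value of Prph that involves those libraries is a description and carries no test. The other 4 were taken because they belong to the same family.

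Neurofilaments give large axons their calibre and are transported along the axon after assembly in the cell body. Nefl forms the core, Nefm and Nefh carry long side arms that kinases phosphorylate, and Ina is the subunit found mainly in central neurons. Peripherin is best known from peripheral sensory, autonomic and motor neurons and co-assembles with the neurofilament subunits. The subunits share an alpha-helical rod flanked by a head and a tail of varying length.

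Hippocampal RNA was sequenced from adult males of the strains C57BL/6J (called B6) and DBA/2J (called D2) aged 3 to 5 months. Each mouse had received AAV9 into both hippocampi at least 6 weeks earlier, carrying a short hairpin RNA against Hp1bp3 (KD) or a scrambled hairpin (Ctrl). Hp1bp3 encodes a heterochromatin protein 1 binding protein. There were 12 libraries, 3 for each of B6 Ctrl, B6 KD, D2 Ctrl and D2 KD, each labelled as a separate mouse, and every control thus carried virus too. The hairpin was delivered by virus to the injected tissue, while the RNA came from the whole hippocampus, so cells that the virus did not reach were included.

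Library totals ran from 18213084 to 39420219 expected counts. Hp1bp3, the knockdown target, lay at 294 to 310 CPM (reads scaled to a fixed library total) in B6 Ctrl and at 182 to 259 CPM in B6 KD, so these groups did not overlap. In D2 it lay at 215 to 234 CPM in Ctrl and at 163, 177 and 229 CPM in KD. The library labelled D2 KD 3, at 229 CPM, therefore fell within the D2 Ctrl range, and D2 results are also given without it. The B6 KD library with the most Hp1bp3 was B6 KD 3. Hp1bp3 differed by −0.54 ± 0.15 (log2 fold change ± SE) between KD and Ctrl in B6 (adjusted p = 0.0760, edgeR) and by −0.25 ± 0.15 in D2 (adjusted p = 1). The interferon response genes, which cells induce on sensing foreign nucleic acid, summed to 54.7 to 62.1 CPM in B6 Ctrl and 302 to 874 CPM in B6 KD, where all 6 rose. In D2 they summed to 60.5 to 151 CPM in Ctrl and 73.4 to 329 CPM in KD. There too all 6 were higher in KD, with a median log2 fold change of 1.53 against 4.33 in B6. None of them was called in D2, where edgeR called 0% of all genes. The part of the interferon response genes in the results below was not tested.

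The members are related in sequence, and the part of the coding sequence that marks this family is printed here because it lies at the start of the helical rod in each. Each line holds 32 bases of the coding strand, and capitals mark the longest run of bases present in all 5 coding sequences. All 5 windows lie in coding exon 1 of the GENCODE M21 annotation (build GRCm38), at chr15:99055525-99055556 on the plus strand for Prph, chr14:68084248-68084279 plus for Nefl, chr14:68124470-68124501 minus for Nefm, chr11:4947603-4947634 minus for Nefh and chr19:47015052-47015083 plus for Ina.
Prph: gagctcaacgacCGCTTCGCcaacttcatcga
Nefl: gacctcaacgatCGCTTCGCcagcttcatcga
Nefm: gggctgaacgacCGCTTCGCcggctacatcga
Nefh: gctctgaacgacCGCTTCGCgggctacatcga
Ina: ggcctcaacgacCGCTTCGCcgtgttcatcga
The shared run is 8 bases long. Between pairs of members, the longest identical coding run was 35 bases, in Prph and Nefm, and it was 17 bases in Nefl and Nefm. Coding lengths ran from 1506 bases in Ina and 1524 in Prph through 1632 in Nefl and 2547 in Nefm to 3273 in Nefh. The run occurs at 2 places in Nefh, of which the first is shown, and at 1 in each other member. As shown, it begins 9.56% of the way into the Nefh coding sequence and 21.7% into that of Prph, so most of the extra length of Nefh and Nefm lies after it.

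The places of the genes bear on how their reads could be counted. In GRCm38, Nefl (chr14:68083863-68089095, plus strand) lies wholly within the span annotated for Nefm (chr14:68082590-68124846, minus strand). The transcript Nefm-202 shares 1108 exon bases with Nefl on the opposite strand, 32.8% of the Nefl exons and 1008 of them coding. The first exon of Ina (chr19:47014698-47025327, plus strand) shares 456 bases with Nt5c2, a nucleotidase gene on the opposite strand. Nefh (chr11:4938754-4948064, minus strand) and Prph (chr15:99055174-99058978, plus strand, 9 exons) overlap no other annotated gene.

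The expected counts carried traces of these overlaps. In all 6 B6 libraries the decimals of Nefl and Nefm added up to whole reads (within 0.015), so reads were divided between them. In all 6 D2 libraries Nefl was whole by itself and Nefm was not, and their sum was not whole. Ina and Nt5c2 added up to whole reads in all 12 libraries, and Nefh and Ap1b1 did so in D2, where neither gene overlaps the other in the reference annotation. Prph was whole in all 12. Reads of each strain had been aligned to that strain's own genome. For every gene compared between the strains here, the strain and the way reads were assigned therefore cannot be told apart. For Nefl, Nefm and Nefh the decimals also showed an assignment that differed between the strains.

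Per kilobase of exon, the members spanned a wide range of levels. In B6 Ctrl, Nefl was at 156 ± 9.95 CPM per kb (SD, n = 3), Ina at 73.1 ± 2.35, Nefm at 39.6 ± 2.58, Nefh at 16.7 ± 1.79 and Prph at 0.952 ± 0.188. The libraries of each of these 5 genes did not overlap those of its neighbour in that order. In D2 Ctrl, Nefl was at 108 ± 5.69 CPM per kb, Nefm at 43.0 ± 4.96, Ina at 38.5 ± 0.941, Nefh at 22.3 ± 0.963 and Prph at 1.25 ± 0.0938, and there the libraries of Nefm and Ina overlapped. The place of Nefm depends on which exons are counted. Over its longest transcript alone Nefm stood at 67.5 ± 7.79 CPM per kb in D2 Ctrl, above every Ina value of that group, and at 62.3 ± 4.06 in B6 Ctrl, below every Ina value there. Prph was the lowest of the 5 in every library by either length.

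**Figure D1:**
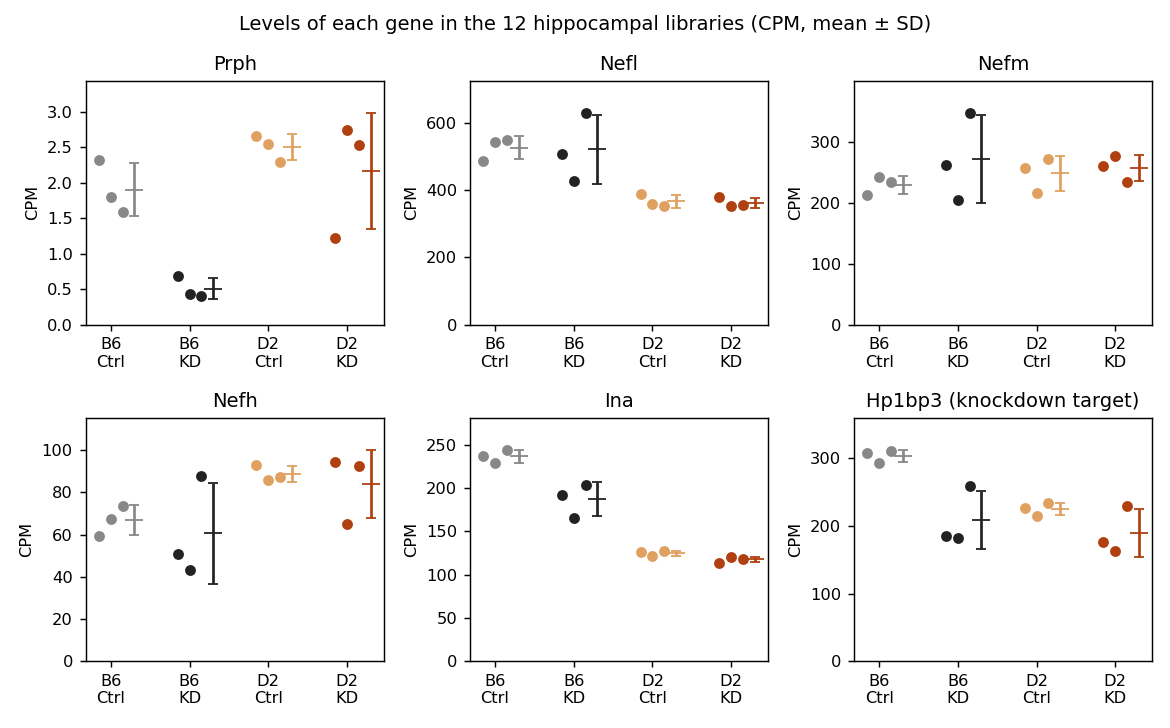
Level of each member and of Hp1bp3 (CPM, linear axis from 0) in the 12 libraries, by group. Points are libraries and the bar beside them is the group mean ± SD (n = 3). Prph in B6 KD lies at 0.403 to 0.681 CPM, below all other libraries, and Ina is lower in D2 than in B6 throughout.

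Prph, the member the choice rests on, was rare in all hippocampi. In B6 Ctrl it had 86, 47 and 55 reads (2.32, 1.80 and 1.59 CPM), and in B6 KD it had 24, 10 and 16 reads (0.681, 0.439 and 0.403 CPM). All 3 KD libraries were below all 3 Ctrl libraries, as held for 14.0% of all tested genes, and Prph was chosen by this fall. The 10 reads of B6 KD 2 have an exact 95% Poisson interval of 4.79 to 18.4, and the 47 reads of the lowest Ctrl count one of 34.5 to 62.5, which cover counting error only. The mean of B6 KD was 26.7% of that of B6 Ctrl, and the fitted log2 fold change was −1.89 ± 0.34. The nearest fitted falls on either side of it, among genes called lower in B6 KD, were those of the unnamed transcript D930020B18Rik (−2.21 ± 0.42) and of Alox12b, a lipoxygenase gene (−1.32 ± 0.27), both named after their values were seen. Leaving out each library gave −2.20 to −1.75.

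In D2, whose libraries the choice did not use, no treatment difference of Prph was detected. D2 Ctrl libraries had 86, 45 and 62 reads (2.66, 2.55 and 2.30 CPM), and D2 KD libraries had 35, 104 and 80 reads (1.22, 2.74 and 2.53 CPM). D2 KD 1 was low and the other KD libraries were within or above the Ctrl range, so the groups overlapped. The difference was −0.21 ± 0.31 on the log2 scale (adjusted p = 1, edgeR), with an interval of 2 SE from −0.83 to 0.42. Without D2 KD 1 the difference was 0.06, without D2 KD 2 it was −0.41, and without the library labelled D2 KD 3 it was −0.33 (adjusted p = 0.833). The fitted treatment difference in D2 exceeded that in B6 by 1.69 ± 0.46, which includes the libraries that chose the gene and is given as a description.

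Between the strains, Prph in Ctrl was at 1.90 ± 0.376 CPM in B6 and 2.50 ± 0.188 CPM in D2 (SD, n = 3), a log2 difference of 0.39 ± 0.31 with overlapping libraries. In KD the D2 libraries (1.22 to 2.74 CPM) all lay above the B6 libraries (0.403 to 0.681 CPM), a difference of 2.08 ± 0.34 that the choice of the gene used. Of all tested genes, 12.6% were higher in this way in D2 KD than in B6 KD.

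The promoter window of Prph is printed because this gene moved most, and that of Ina because its level differed most between the strains among the neurofilament genes. RefSeq windows (build GRCm38.p6) run from 250 bases before to 50 after the start, and 2 of the 5 members matched. Both strands were searched for TATAAA (the TATA box), for CCAAT (the CCAAT box) and for GGGCGG (the GC box), and capitals mark every match. The windows are chr15:99054924-99055223 for Prph and chr19:47014431-47014730 for Ina, both on the plus strand.
Prph: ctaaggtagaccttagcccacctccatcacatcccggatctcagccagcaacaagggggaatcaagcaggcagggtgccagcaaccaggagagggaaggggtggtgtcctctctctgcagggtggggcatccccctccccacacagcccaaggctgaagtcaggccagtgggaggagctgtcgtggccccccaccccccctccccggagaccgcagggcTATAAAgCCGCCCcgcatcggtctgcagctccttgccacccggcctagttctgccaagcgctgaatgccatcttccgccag
Ina: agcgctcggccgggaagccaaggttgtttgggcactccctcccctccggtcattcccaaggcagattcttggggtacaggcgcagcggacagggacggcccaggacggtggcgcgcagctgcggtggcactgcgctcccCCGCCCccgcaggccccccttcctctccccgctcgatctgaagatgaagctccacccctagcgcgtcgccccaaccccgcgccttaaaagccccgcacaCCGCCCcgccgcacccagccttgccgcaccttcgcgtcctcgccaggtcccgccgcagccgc
The Prph window held TATAAA, its first base 31 bases before the start, next to a GGGCGG on the opposite strand. TATAAA occurred on either strand in 13.6% of the 32851 promoter windows of this length. The Ina window held GGGCGG on the opposite strand at 2 places, a motif present in 35.7% of windows. CCAAT, present in 37.4%, was in neither. GC content was 64.7% for Prph and 71.7% for Ina.

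Among the 4 neurofilament genes, only Ina had KD libraries that did not overlap the Ctrl libraries, in both strains. In B6 none of the 4 passed the edgeR threshold (adjusted p under 0.05), where 2.64% of the 15853 genes tested did, and 1 of the 4, Ina, had an unadjusted p under 0.05, as did 3262 of all genes tested. DESeq2 called 1 of the 4, again Ina, where it called 10.7% of genes.

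Ina lay at 237, 229 and 244 CPM in B6 Ctrl and at 192, 166 and 204 CPM in B6 KD. The groups did not overlap, and 14.0% of all tested genes were lower in B6 KD in this way. The mean of B6 KD was 79.1% of that of B6 Ctrl. The log2 fold change was −0.34 ± 0.08 (adjusted p = 0.0521, edgeR). The call depends on the method. It passed with DESeq2 (−0.36, adjusted p = 0.000324), with the newer quasi-likelihood method (adjusted p = 0.0475) and with RLE scaling (adjusted p = 0.0437), and it missed with limma-voom (adjusted p = 0.0546), with no count filter (adjusted p = 0.0646) and with total count as covariate (adjusted p = 0.0638). Leaving out B6 KD 3 gave −0.43 (adjusted p = 0.0243), and leaving out B6 KD 2 gave −0.28 (adjusted p = 0.132). Over all 12 libraries left out in turn, the adjusted p ran from 0.0243 to 0.189. Summed with Nt5c2, the fold change was −0.27 ± 0.07 (adjusted p = 0.0683), and Nt5c2 alone differed by −0.06 ± 0.10.

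Levels of cell type markers are given beside this difference. Of 6 general neuron markers 5 were lower in B6 KD, with a median log2 fold change of −0.21 and none called, and their summed level was 6133 to 6614 CPM in B6 Ctrl and 5314 to 6344 in B6 KD. Markers of hippocampal excitatory neurons summed to 632 to 749 CPM in B6 Ctrl and 538 to 662 in B6 KD, and to 525 to 626 CPM in D2. Microglia markers ran from 335 to 384 CPM in B6 Ctrl and from 425 to 652 in B6 KD. Their part in the difference of Ina was not tested, and in whole tissue fewer cells of a type and less RNA per cell cannot be told apart.

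Nefl, Nefm and Nefh varied more among B6 KD libraries than between treatments. Nefl lay at 488, 542 and 549 CPM in B6 Ctrl and at 507, 426 and 630 CPM in B6 KD. Nefm lay at 213, 242 and 234 CPM in Ctrl and at 262, 204 and 347 CPM in KD. Nefh lay at 59.3, 67.4 and 73.6 CPM in Ctrl and at 50.7, 43.5 and 88.0 CPM in KD. For all 3 genes B6 KD 2 was the lowest and B6 KD 3 the highest of the 6 B6 libraries, so the KD values enclosed the Ctrl values. The coefficient of variation of Nefh was 39.3% in B6 KD and 10.7% in B6 Ctrl.

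The log2 fold changes in B6 were −0.02 ± 0.12 for Nefl (adjusted p = 0.966, edgeR), 0.24 ± 0.17 for Nefm (adjusted p = 0.442) and −0.14 ± 0.23 for Nefh (adjusted p = 0.784). Their intervals of 2 SE were −0.26 to 0.23, −0.09 to 0.57 and −0.60 to 0.33. Single libraries decided these values. Without B6 KD 3 they were −0.20 for Nefl, −0.0043 for Nefm and −0.53 for Nefh. Without B6 KD 2 they were 0.09, 0.39 and 0.04. B6 KD 3 was also the B6 KD library with the highest Hp1bp3, as given above. Interneuron markers summed to 727 to 823 CPM in B6 Ctrl and to 599, 571 and 888 CPM in B6 KD. B6 KD 2 was thus the lowest and B6 KD 3 the highest of the 6 B6 libraries. The same held for library totals (21787915 and 39420219 expected counts). Thalamus markers were highest in B6 KD 3 (149 CPM), but B6 KD 2 (117 CPM) was not the lowest B6 library. The part of each of these in the 3 genes was not tested.

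In D2 no treatment difference was detected in the 4 neurofilament genes. None was called by edgeR, which called 0% of all genes there (452 genes had an unadjusted p under 0.05, none of them a member, and DESeq2 called 1 gene). Ina lay at 126, 121 and 127 CPM in Ctrl and at 114, 120 and 119 CPM in KD. These groups did not overlap, as was so for 3.03% of genes in this direction, but the difference was small, −0.09 ± 0.08 (adjusted p = 1), with an interval of −0.25 to 0.08. Nefl lay at 353 to 389 CPM in Ctrl and 351 to 379 in KD (−0.02 ± 0.12), and Nefm at 217 to 272 and 234 to 277 (0.05 ± 0.17). Nefh lay at 86.0 to 93.3 CPM in Ctrl and at 94.5, 65.3 and 92.4 CPM in KD, where only D2 KD 2 was below the Ctrl range (−0.08 ± 0.23). Without the library labelled D2 KD 3 the differences were −0.01 for Nefl, 0.11 for Nefm, −0.16 for Nefh and −0.09 for Ina, and none was called.

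**Figure D2:**
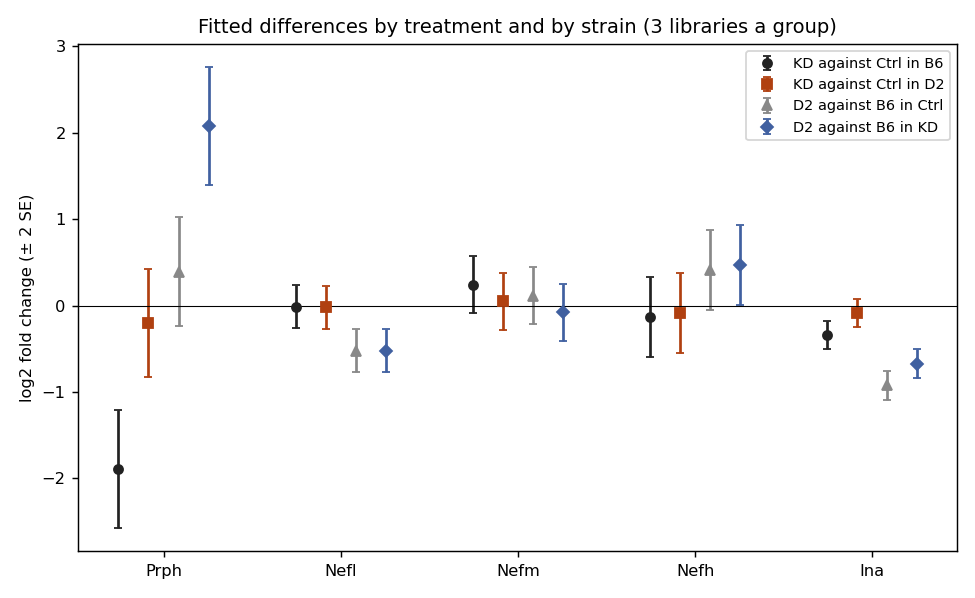
Fitted log2 fold change (edgeR) of each member in 4 comparisons, with bars of 2 SE to each side. Prph in B6 (−1.89), the fall by which the gene was chosen, stands furthest from 0 among the treatment differences. Both strain differences of Ina and of Nefl lie below 0.

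Averaged over the strains, Ina differed by −0.21 ± 0.06 (adjusted p = 0.0907, edgeR) and Nefl, Nefm and Nefh by −0.02 ± 0.09, 0.14 ± 0.12 and −0.11 ± 0.16. No neurofilament gene and 0% of all genes were called by edgeR, with 3046 genes at an unadjusted p under 0.05 and Ina among them. DESeq2 called 7.83% of genes and, of the 4, Ina (−0.22, adjusted p = 0.00290). Without B6 KD 3, edgeR also called Ina (−0.27, adjusted p = 0.0429).

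Whether the treatment difference of a gene differed between the strains was tested as an interaction. The difference in D2 minus that in B6 was 0.25 ± 0.12 for Ina (unadjusted p = 0.0511, adjusted p = 0.837, edgeR), −0.0038 ± 0.18 for Nefl, −0.19 ± 0.24 for Nefm and 0.05 ± 0.33 for Nefh. None of the 4 was called or had an unadjusted p under 0.05, and edgeR called 0% of all genes (937 had an unadjusted p under 0.05, and DESeq2 called 11). The treatment difference of Ina in B6 was thus not shown to differ from its value in D2.

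The libraries of the strains differed in the reads assigned to Ina and to Nefl, and for both genes the strain and the assignment of reads cannot be told apart. Of the 4 neurofilament genes 2 were called in Ctrl, where 14.0% of all genes were, and the same 2 in KD, where 15.0% were. Both were lower in D2.

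Ina was at 237 ± 7.62 CPM in B6 Ctrl and 125 ± 3.05 CPM in D2 Ctrl (SD, n = 3), so D2 held 52.7% of the B6 mean. The highest of the 6 D2 libraries, 127 CPM, was below the lowest of the 6 B6 libraries, 166 CPM. Of all tested genes, 17.9% were lower in D2 without overlap in Ctrl and 15.7% in KD. The share with no overlap over all 12 libraries was not computed. The difference was −0.92 ± 0.08 in Ctrl (adjusted p = 1.57e-05, edgeR) and −0.67 ± 0.08 in KD (adjusted p = 0.000174), and it was called with each of the 12 libraries left out. Summed with Nt5c2, which differed by 0.02 ± 0.10 in Ctrl, it was −0.66 ± 0.07 (adjusted p = 8.60e-05) in Ctrl and −0.44 ± 0.07 (adjusted p = 0.00161) in KD.

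Nefl was at 526 ± 33.6 CPM in B6 Ctrl and 367 ± 19.2 CPM in D2 Ctrl. Its libraries did not overlap between the strains in either treatment, as held in Ctrl for 17.9% of all genes and in KD for 15.7% in the direction of lower in D2. The difference was −0.52 ± 0.12 in Ctrl (adjusted p = 0.0152, edgeR) and −0.53 ± 0.12 in KD (adjusted p = 0.0145). In Ctrl the call was lost without B6 Ctrl 3 (adjusted p = 0.0650), without D2 Ctrl 2 (adjusted p = 0.0575) or without D2 Ctrl 3 (adjusted p = 0.0538), and in KD without the library labelled D2 KD 3 (adjusted p = 0.0503).

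The reads of Nefl and Nefm were also joined, which avoids their division in B6. Joining must bring the strain difference of Nefl closer to that of Nefm. In D2 the sum was not whole, so for the sum too the strain and the assignment of reads cannot be told apart. The sum of both genes was 756 ± 47.9 CPM in the B6 controls and 792 ± 174 CPM after knockdown, and in D2 it was 615 ± 36.5 and 619 ± 25.5 CPM. Fitted as 1 gene it differed between D2 and B6 by −0.30 ± 0.14 in Ctrl (adjusted p = 0.218, edgeR) and −0.36 ± 0.14 in KD (adjusted p = 0.114), so neither was called. Nefm took 29.9% to 30.8% of the sum in B6 Ctrl and 37.7% to 43.5% in D2 Ctrl. The treatment difference of the sum was 0.07 ± 0.14 in B6 and 0.01 ± 0.14 in D2. This joining was chosen after the decimals had been seen.

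**Figure D3:**
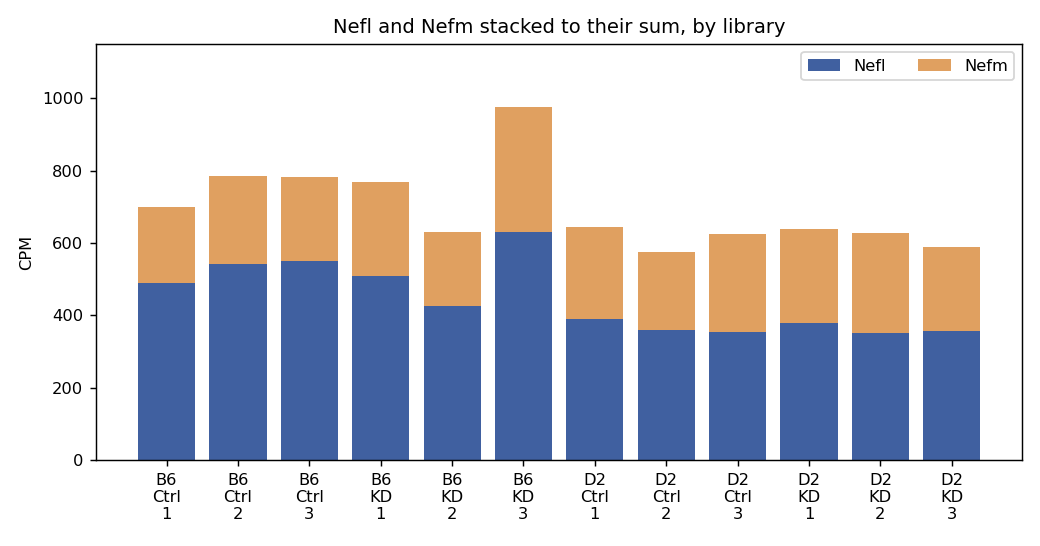
Nefl and Nefm (CPM, linear axis from 0) stacked to their sum in each of the 12 libraries. The sum is 574 to 645 CPM in D2 Ctrl and 700 to 784 CPM in B6 Ctrl, and B6 KD 3 has the highest sum, 976 CPM.

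Nefm and Nefh were not called between the strains. Nefm differed by 0.12 ± 0.17 in Ctrl (adjusted p = 0.765, edgeR) and −0.08 ± 0.17 in KD (adjusted p = 0.837). Nefh was higher in every D2 Ctrl library (86.0 to 93.3 CPM) than in every B6 Ctrl library (59.3 to 73.6 CPM), as 13.9% of all genes were, yet its difference of 0.41 ± 0.23 missed the threshold (adjusted p = 0.342). In KD it was 0.47 ± 0.23 (adjusted p = 0.239) with overlapping libraries, and without B6 KD 3 it was 0.85 (adjusted p = 0.00674). Summed with Ap1b1, Nefh differed by 0.18 ± 0.10 in Ctrl.

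The balance of the subunits was described by reads relative to Nefl within each library, with no test and no correction for length. For each 100 Nefl reads there were 42.6 to 44.5 Nefm reads in B6 Ctrl, 51.6 ± 3.56 (mean ± SD, n = 3) in B6 KD, while D2 had 60.4 to 77.0 in Ctrl and 65.8 to 78.8 in KD. Nefh had 12.2 to 13.4 reads in B6 Ctrl, 9.99 to 14.0 in B6 KD, and in D2 24.0 to 24.8 in Ctrl and 18.6 to 26.0 in KD. Both ratios were higher in each D2 library than in each B6 library. The division of reads between Nefl and Nefm, given above, enters these ratios in B6. In D2 the division of reads between Nefh and Ap1b1 enters the Nefh ratio, and Nefm was not whole by itself. For both ratios the strain and the assignment of reads thus cannot be told apart.

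Ina had 42.2 to 48.6 reads per 100 Nefl reads in B6 Ctrl and 32.4 to 38.9 in B6 KD, without overlap, and 34.1 ± 1.82 (mean ± SD, n = 3) in D2 Ctrl and 32.5 ± 2.20 in D2 KD. How often ratios of other genes did not overlap was not computed. The division of reads between Ina and Nt5c2, and in B6 between Nefl and Nefm, enters this ratio. In B6 the log2 ratio of Ina to Nefl differed by −0.31 between KD and Ctrl, and it stayed between −0.36 and −0.23 with each library left out. The ratio of Nefm to Nefl differed by 0.24 (0.19 to 0.29) in B6, in the other direction. Prph had 0.290 to 0.475 reads per 100 Nefl reads in B6 Ctrl, 0.0640 to 0.134 in B6 KD, and in D2 0.650 to 0.711 in Ctrl and 0.323 to 0.779 in KD.

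**Figure D4:**
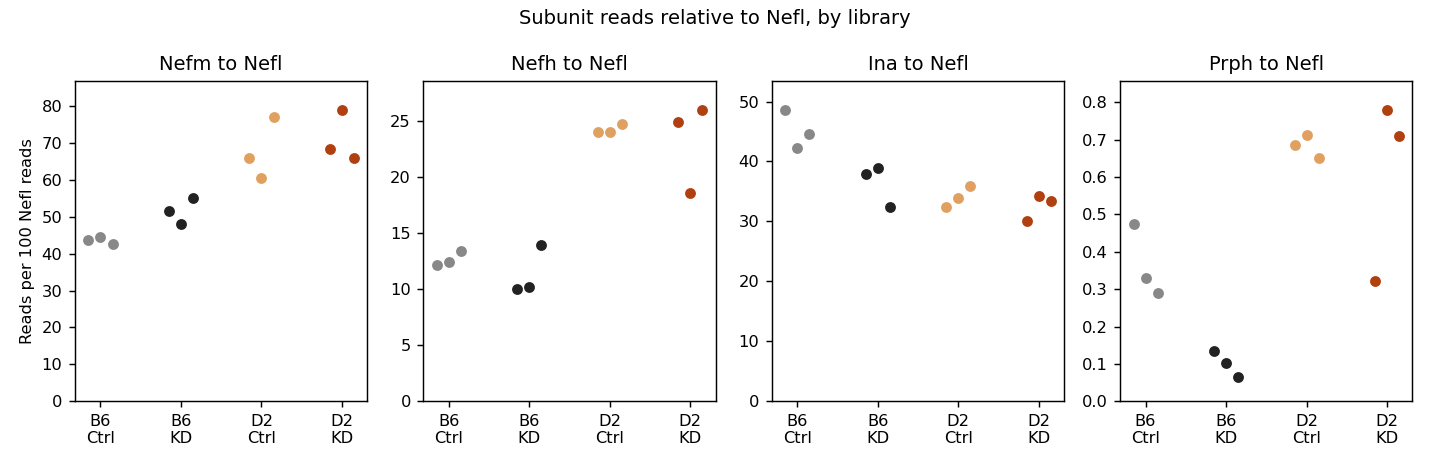
Reads of Nefm, Nefh, Ina and Prph per 100 Nefl reads in each library (linear axes from 0, 3 libraries a group). Nefh reads are 9.99 to 14.0 in all B6 libraries and 18.6 to 26.0 in all D2 libraries, where they were divided with Ap1b1. Ina reads are lower in B6 KD than in B6 Ctrl.

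Within groups the neurofilament genes correlated positively with one another, though for some pairs many other genes did so more strongly. After the group means were removed, Pearson's r over the 12 libraries on the log2 scale was 0.89 between Nefl and Nefh, 0.85 between Nefl and Nefm, 0.82 between Nefm and Ina, 0.75 between Nefl and Ina, 0.65 between Nefm and Nefh and 0.60 between Nefh and Ina. Prph did not follow them, with r from −0.45 (Nefh) to 0.19 (Ina). For each of the 4 genes the spread within groups was widest in B6 KD, so those libraries weigh heavily in r. For Nefl the coefficient of variation was 19.7% there and 4.10% to 6.39% in the other groups. The division of reads between Nefl and Nefm in B6, given above, enters their r. Libraries share their depth and their dissection across genes, and these values are descriptions.

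With the groups kept in, the genes of most similar pattern over the 12 libraries were picked from 14180 genes with a mean of at least 1 CPM. For Prph they were Lrp3, an LDL receptor relative (r = 0.97), B230217C12Rik (0.97) and Mpp2, a synaptic scaffold gene (0.97). For Nefl they were Ell3 (0.98), Dusp5, a phosphatase of ERK (0.97), and Crtc2, a CREB coactivator (0.95). Nefm had lower maxima, with Mtmr11 (0.90), Slc35f6 (0.89) and Jup, which encodes plakoglobin (0.89). Nefh was followed by Rfwd2, a ubiquitin ligase gene (0.93), Smoc2 (0.93) and Fasn, fatty acid synthase (0.93). Ina was followed by Gm13304 (0.99), Trmt1, a tRNA methyltransferase gene (0.98), and Tmem59l (0.98). Between members r was 0.91 for Nefl and Ina, −0.29 for Nefl and Nefh and −0.60 for Nefl and Prph. For Nefl and Nefh the sign was the reverse of that within groups (0.89). All r with the groups kept in include the differences between the strains, where the strain and the assignment of reads cannot be told apart. Those of Prph also include the fall by which it was chosen.

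Other intermediate filament genes were examined beside the members. In B6 KD 12 of 14 were higher than in Ctrl, with a median log2 fold change of 0.57 against 0.00 over all genes tested, and 0 were called by edgeR. Vim, the filament of glia and vessels, differed by 2.09 ± 0.50 (adjusted p = 0.0514), Gfap, the astrocyte filament, by 1.70 ± 0.52 (adjusted p = 0.0981) and the lamin gene Lmnb1 by 0.59 ± 0.14 (adjusted p = 0.0514), all 3 named after their values were seen. Of the astrocyte markers, the water channel gene Aqp4 rose (1.20 ± 0.19, adjusted p = 0.0326), and the list summed to 918 to 972 CPM in B6 Ctrl and 1133 to 1342 CPM in B6 KD. In D2 the median of the 14 was 0.08 and none was called. Between the strains in Ctrl, Bfsp1, a lens filament gene, was higher in D2 (1.71 ± 0.34, adjusted p = 0.00559) and Iffo1 lower (−0.42 ± 0.08, adjusted p = 0.00381). In KD Bfsp1 was higher (1.78 ± 0.33, adjusted p = 0.00356), and Iffo1 (−0.49 ± 0.08) and the progenitor filament gene Nes (−1.15 ± 0.33) were lower. Here too the strain and the assignment of reads cannot be told apart.

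Genes that carry, modify or dispose of neurofilaments were examined next, in B6 KD beside the 2.64% called over all genes. Of 14 kinase and phosphatase genes 1 fell in B6 KD, Cdk5r2, an activator of the neurofilament kinase Cdk5 (−0.50 ± 0.11, adjusted p = 0.0443, edgeR), and the median was −0.14. Of 17 axonal microtubule genes 1 fell, Map1a, a microtubule-associated protein (−0.52 ± 0.10, adjusted p = 0.0369), with a median of −0.07. None of 11 linker and motor genes was called, 10 of them being lower (median −0.16), and none of 7 turnover genes (median 0.11) or 5 genes for neurofilament mRNA binding (median −0.09). Of 8 axon injury genes 7 were tested, all 7 were higher (median 0.92) and none was called. In D2 KD no gene of these lists was called.

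Between the strains in Ctrl, Hnrnpk, which binds neurofilament mRNA, was lower in D2 (−0.39 ± 0.09, adjusted p = 0.0116, edgeR), as was Dpysl3, an axon guidance effector (−1.57 ± 0.14, adjusted p = 1.98e-05). Sox11, a transcription factor of axon regeneration, was higher (3.36 ± 0.34, adjusted p = 4.16e-05). The same 3 genes were called in KD in the same directions, at −0.39 ± 0.09, −1.72 ± 0.14 and 3.30 ± 0.33. No linker, kinase or turnover gene was called between the strains. As for the members, the strain and the assignment of reads cannot be told apart in these differences.

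Markers of peripheral sensory and cholinergic neurons, the cells best known for Prph, were scarce. Of 11 listed, 10 were in the table and 3 had enough reads to be tested, none of which was called in any comparison. Scn10a, a sodium channel gene of sensory neurons, had at most 6 reads in any library. The list summed to 1.61 to 2.45 CPM in B6 Ctrl and 2.41 to 5.75 in B6 KD. In D2 it summed to 1.92 to 3.00 CPM in Ctrl and 1.11 to 4.02 in KD. Such low sums can turn on a single gene: Phox2a had 0 reads in 6 libraries and reached 82 reads (2.07 CPM) in another. The part of these cells in the level of Prph was not tested.

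Signs of tissue at the edge of the dissection varied between libraries. Choroid plexus markers summed to 79.9 to 2737 CPM in B6 Ctrl, 149 to 5070 in B6 KD, and in D2 193 to 5044 in Ctrl and 60.1 to 5159 in KD. Thalamus markers summed to 88.5 to 118 CPM in B6 Ctrl, 95.3 to 149 in B6 KD, and in D2 83.3 to 144 in Ctrl and 103 to 114 in KD. Oligodendrocyte markers summed to 3708 to 5483 CPM in B6 Ctrl and 3835 to 4608 in B6 KD, and in D2 to 2432 to 4500 in Ctrl and 2394 to 3002 in KD, with 1 of 5 called lower in D2 in Ctrl and 2 of 5 in KD. Their part in the levels of the members was not tested.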

How the data were processed

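RNA of 12 hippocampi was measured by mRNA sequencing. The authors trimmed reads, aligned those of each mouse to its own strain's genome and estimated gene expression with RSEM 1.2.12 and Bowtie2 2.2.0. The submitters' processing notes name GRCm38 and mm10. The deposited table holds the RSEM expected counts of each gene, which are not normalized and may have decimals. The annotation release and strand setting were not given in the sources used here. Most samples had reads joined from repeat runs. The authors' DESeq2-normalized table was not used.

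Groups came from the strain and treatment labels. Replicate numbers follow the order of deposit and pair nothing. Expected counts were rounded to whole numbers, genes with low counts were removed (filterByExpr), and 15853 of 22236 genes were tested in edgeR 4.0.16 by quasi-likelihood F-tests (R 4.3.3, TMM, robust, older quasi-likelihood method), with a mean for each of 4 groups. Benjamini-Hochberg adjusted p under 0.05 was called. Standard errors were derived from the F statistic (fold change over its root) and are approximate. CPM used TMM library sizes. P-values measure the spread between these mice, estimated for each gene over the 4 groups together. Depth per library was 18213084 to 39420219 expected counts, so Prph, at 10 to 104 reads, has a larger counting error than the other members.

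Alternatives were DESeq2 1.42.0, limma-voom (limma 3.58.1), the newer quasi-likelihood method, RLE scaling, no count filter, total count as covariate, each library left out, and, added later, members summed with genes sharing their reads. Scripts were tested on simulated data. Positions and exon lengths came from GENCODE M21 and promoters from RefSeq. Named genes were the members, Hp1bp3, up to 3 called genes per list and comparison, and the 3 most similar genes per member. Members and lists were chosen with earlier results of these data known.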

Additional observations from a re-analysis of the deposited data

How the results depend on the processing

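Of the 4 neurofilament genes, 0 were called in B6 KD and 1 (Ina) with DESeq2, the newer quasi-likelihood method or RLE scaling, with 0 to 1 over the libraries left out. Averaged over the strains 0 were called, 1 with DESeq2 and 0 to 1 with libraries left out. Between the strains 2 were called in Ctrl and in KD, 1 in Ctrl with total count as covariate (Nefl −0.44, adjusted p = 0.0560), and 1 to 2 in Ctrl and 1 to 3 in KD with libraries left out. Over all genes, edgeR called 418 in B6 KD, DESeq2 1688, the fit with total count as covariate 0, and fits without a library 0 to 790. In D2 KD these were 0 and, with DESeq2, 1, with 0 to 1 without a library. Averaged over strains they were 0, 1241 with DESeq2, 15 with the newer method and 0 to 799 without a library, and for the interaction 0 and, with DESeq2, 11. Fold changes near 0 changed sign. With total count as covariate Nefm in D2 KD was −0.10 and the Nefh interaction −0.051. The Nefl interaction was 0.017 with DESeq2, 0.016 with limma-voom and 0.017 with RLE scaling. Summing Nefl and Nefm turned Nefl to 0.068 in B6 KD, 0.0085 in D2 KD and 0.038 averaged, and Nefm between the strains in Ctrl to −0.30. With each library left out, B6 KD ranged from −0.20 to 0.092 for Nefl, −0.0043 to 0.39 for Nefm and −0.53 to 0.035 for Nefh. D2 KD ranged from −0.41 to 0.060 for Prph, −0.066 to 0.017 for Nefl, −0.042 to 0.12 for Nefm and −0.18 to 0.071 for Nefh. Averaged Nefl ranged from −0.12 to 0.035. The interaction ranged from −0.11 to 0.17 for Nefl, −0.35 to 0.038 for Nefm and −0.12 to 0.44 for Nefh, and Nefm between the strains in KD from −0.23 to 0.16. The cause was not tested. Of the tested fold changes under alternatives, 429 kept their direction and their side of the threshold. Another 31 changed direction, 7 came to pass the threshold and 7 ceased to pass it. The 90 untested values of Prph kept their direction, but all involve libraries by which the gene was chosen, so this is no support for its fall. The 10 to 104 reads of Prph limit its precision.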
